A study of Mus musculus with 72 samples.

Results

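The heat shock proteins and their DNAJ co-chaperones were followed across 72 mouse RNA-Seq libraries, in muscle, lung, liver, heart, and white fat of *Bmal1*-KO mice with and without *Bmal1* delivered to muscle. All protein-coding genes whose symbols begin with Hspa, Hspb, Hspd, Hspe, Hsph, Hsp90, or Dnaj were taken, which gave 74 of the 55401 genes in the tables. Of these, 73 had a mean normalized count above 5 in at least 1 of the 6 sets of libraries and 64 did so in all 6, while *Dnajc5g* did so in none. By symbol, the 73 genes comprise 13 of the HSP70 family, 3 of HSP90, 7 small heat shock proteins, 1 of HSP110, 2 of HSP60/HSP10, 4 DNAJA, 13 DNAJB, and 27 DNAJC genes. The HSP110-type genes *Hspa4* and *Hspa4l* are counted with HSP70 here. The remaining 3, *Hspb11*, *Hspbap1*, and *Hspbp1*, share the letters of their symbols and are not themselves heat shock proteins of these families. The filter kept 65 members of 16199 genes in gastrocnemius, 65 of 14477 in the GFP experiment, 70 of 21072 in lung, 65 of 16656 in liver, 68 of 18089 in heart, and 72 of 21092 in white fat.

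All mice were male. The paper gives a single time of day for its RNA-Seq samples, early in the light phase, so differences in daily rhythm were not tested. The gastrocnemius (calf muscle) groups at 10 weeks of age were 6 WT, 6 KO, and 7 KO+AAV libraries, and at 40 weeks 5 of each. KO mice lacked *Bmal1* (gene symbol *Arntl*) in every tissue, and WT mice were their littermates. KO+AAV mice were KO mice that had received, at postnatal day 5, an AAV9 vector carrying HA-tagged mouse *Bmal1* under CK6, a promoter active in muscle. The sources name no vector for the WT and KO groups. In KO+AAV against KO, effects of *Bmal1* and of the vector itself therefore cannot be told apart. A separate experiment compared 3 KO+GFP mice, given an AAV9-CK6 vector with GFP in place of *Bmal1*, with 3 KO control mice at 10 weeks. Lung, liver, heart, and white fat came from 4 KO and 4 KO+AAV mice each at 40 weeks. No WT libraries of these 4 tissues were used, so their comparisons lack a WT level. Sequencing took place at 2 sites. ICBR handled lung, liver, heart, and white fat and, of the 10-week muscle, 3 WT, 3 KO, and 4 KO+AAV libraries. Novogene handled the remaining muscle, which includes 3 libraries of each 10-week group, the 40-week groups, and the GFP experiment. The labels do not say whether a replicate number in different tissues marks the same mouse, and *P* values here measure the spread between libraries.

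Heat shock proteins are molecular chaperones, which bind unfolded or misfolded proteins. HSP70 proteins hold client proteins in cycles of ATP binding and hydrolysis. DNAJ proteins deliver the clients and stimulate the hydrolysis, HSP110 proteins exchange the nucleotide, and HSP90 acts on clients at a later stage. Small heat shock proteins hold unfolded proteins without ATP, and several of them are abundant in striated muscle, where they associate with the contractile apparatus. The cytosolic stress-inducible members are transcribed through HSF1, which binds the heat shock element, an array of inverted GAA repeats. Other members are specific to the endoplasmic reticulum, where they respond to unfolded secretory proteins, or to mitochondria. Members are grouped below by 4 lists. The lists were chosen with earlier results of these data known, so a direction shared within a list is description only. The cytosolic stress list holds *Hspa1a*, *Hspa1b*, *Hsph1*, *Hspb1*, *Hsp90aa1*, *Dnajb1*, *Dnaja1*, *Dnajb4*, *Dnaja4*, and *Hspa8*, of which *Hspa8* is largely constitutive. The endoplasmic reticulum list has 10 members, among them *Hspa5*, *Hsp90b1*, and *Dnajb9*, the mitochondrial list 8, among them *Hspd1*, *Hspe1*, and *Hspa9*, and the small heat shock protein list 6, *Hspb1*, *Hspb2*, *Hspb3*, *Hspb6*, *Hspb7*, and *Hspb8*.

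The promoters of *Hspa1a*, *Hspa1b*, and *Hspb1* and stretches of those of *Hspe1* and *Hsph1* are shown as examples of the heat shock element, in genes followed through the comparisons below and, for *Hspe1*, as an array of overlapping matches. Promoter sequences (RefSeq, GRCm38.p6, 250 bases before to 50 bases after the annotated start) were found for 60 of the 74 members. The heat shock element was searched as 3 alternating repeats (GAANNTTCNNGAA or TTCNNGAANNTTC, each the reverse complement of the other, so that both strands are covered) and as 2 (GAANNTTC or TTCNNGAA, each its own reverse complement). The 3-repeat form was present in 4 of the 60 windows (6.67%), those of *Dnajb6*, *Hspd1*, *Hspe1*, and *Hsph1*, against 179 of the 27025 genes with a window (0.662%). The 2-repeat form, which lies inside the 3-repeat form, was present in 16 (26.7%) against 4587 genes (17.0%). The 16 were *Dnaja1*, *Dnaja4*, *Dnajb4*, *Dnajb6*, *Dnajc10*, *Dnajc27*, *Dnajc5g*, *Hspa1a*, *Hspa1b*, *Hspb1*, *Hspb3*, *Hspb6*, *Hspb8*, *Hspd1*, *Hspe1*, and *Hsph1*. The E-box CACGTG, a sequence that BMAL1 binds with its partner CLOCK, was present in 7 windows (11.7%), of *Dnajb9*, *Dnajc1*, *Dnajc16*, *Dnajc8*, *Hspbap1*, *Hspd1*, and *Hsph1*, against 2187 genes (8.09%). These are matches of letters and no binding was measured. In the sequences below, written 5′ to 3′ along the gene's strand, capitals mark the matches to the heat shock element.
Hspa1a, chr17:34972157-34972406, minus strand: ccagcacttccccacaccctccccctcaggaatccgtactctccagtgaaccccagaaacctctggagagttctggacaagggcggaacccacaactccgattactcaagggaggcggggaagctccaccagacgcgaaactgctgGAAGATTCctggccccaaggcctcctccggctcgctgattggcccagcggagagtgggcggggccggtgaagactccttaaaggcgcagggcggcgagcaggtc
Hspa1b, chr17:34959239-34959488, minus strand: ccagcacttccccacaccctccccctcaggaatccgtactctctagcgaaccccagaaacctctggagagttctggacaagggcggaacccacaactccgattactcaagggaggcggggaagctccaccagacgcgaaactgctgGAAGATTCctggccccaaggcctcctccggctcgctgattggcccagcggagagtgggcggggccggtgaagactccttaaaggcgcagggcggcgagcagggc
Hspb1, chr5:135887669-135887918, plus strand: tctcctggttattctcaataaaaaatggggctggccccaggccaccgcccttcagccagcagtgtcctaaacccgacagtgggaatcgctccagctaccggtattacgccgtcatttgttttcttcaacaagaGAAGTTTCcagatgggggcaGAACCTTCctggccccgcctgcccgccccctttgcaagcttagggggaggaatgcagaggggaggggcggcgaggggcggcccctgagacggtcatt
Hspe1, chr1:55088053-55088082, plus strand: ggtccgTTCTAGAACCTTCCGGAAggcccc
Hsph1, chr5:149636287-149636316, minus strand: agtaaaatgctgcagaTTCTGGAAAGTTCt

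The *Hspa1a* and *Hspa1b* promoters are identical at 98.8% of positions, and each holds 1 match that begins 104 bases before the start. *Hspb1* holds 2 matches, which begin 117 and 97 bases before the start. The *Hspe1* stretch holds 2 overlapping 3-repeat matches, beginning 89 and 84 bases before the start, in the window that *Hspe1* shares with *Hspd1* on the other strand. The *Hsph1* match begins 37 bases after the start that RefSeq gives. *Hspa1a* (ENSMUSG00000091971, chr17:34969190-34972156) and *Hspa1b* (ENSMUSG00000090877, chr17:34956436-34959238) are near-identical copies, so the split of reads between them is uncertain. The neighbouring *Hspa1l* (ENSMUSG00000007033, chr17:34972703-34979285), shares 71.9% of its exon bases with the annotated gene *Gm10501*. *Dnaja4* shares 44.1% with *Wdr61* on the other strand and *Hspb2* 30.2% with *Cryab*, and the sources used here do not say whether reads were counted by strand. *Hspd1* and *Hspe1* have 5 and 6 named pseudogenes.

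The targeted gene was first checked in the libraries. *Arntl* in gastrocnemius was 402 to 634 normalized counts in the 10-week WT libraries, 196 to 296 in KO, and 169 to 281 in KO+AAV, so the gene count separated WT from both other groups but not KO+AAV from KO. Directions given for KO+AAV muscle therefore rest on its labels. At 40 weeks it was 480 to 608 in WT and 268 to 359 in KO+AAV. The library labelled KO replicate 2 at 40 weeks had 1039, above every WT library, while the other 4 KO libraries had 308 to 395. This level goes against its label, and the main counts that include it are given with and without it. *Arntl* was 70.2 to 150 in KO+GFP and 113 to 121 in KO control muscle. In liver it was 584 to 679 in KO and 781 to 1231 in KO+AAV, without overlap, while the groups overlapped in heart, white fat, and lung. Markers of the labelled tissue were detected in every set, with skeletal muscle genes summing to at least 908816 in each gastrocnemius library. In heart, KO replicate 2 had a hepatocyte marker sum of 1646068 against 445 to 602 in the other 7 libraries, and KO replicate 4 and KO+AAV replicate 1 had the 2 highest atrial sums, 506330 and 94099. In white fat, KO replicate 2 had an epididymis marker sum of 1486801 against 7.55 to 861 in the other 7 libraries. The ciliated airway cell sum was 4923 in KO replicate 2, 13742 in KO replicate 3, and 9537 in KO+AAV replicate 2. It was 66.2 to 126 in the remaining white fat libraries. Reads on genes per library were 32563431 to 41733282 (ICBR) and 10076827 to 11811506 (Novogene) in 10-week muscle, 9325122 to 13610317 in 40-week muscle, 6754312 to 8515400 in the GFP experiment, and 36903079 to 50755829 in the other tissues.

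Levels per gene length (median RPKM of the 40-week KO libraries, from tables normalized separately) put small heat shock proteins first in gastrocnemius and heart and *Hsp90ab1* first in lung, liver, and white fat. In gastrocnemius *Hspb6*, a small heat shock protein of striated and smooth muscle, stood first at 694 RPKM, ahead of *Hsp90ab1*, the constitutive cytosolic HSP90, at 422, *Hspb7*, the cardiovascular small heat shock protein, at 404, and *Hspb8*, a partner of BAG3 in chaperone-assisted autophagy, at 322. In heart *Hspb7* stood first at 749, followed by *Hsp90ab1* at 385, *Hspa8*, the constitutive cytosolic HSP70, at 285, and *Hspb6* at 264. *Hsp90ab1* and *Hspa8* were the 2 highest members in lung (374 and 228), liver (330 and 271), and white fat (283 and 211). The endoplasmic reticulum HSP70 *Hspa5* (BiP) followed them in liver at 222 RPKM. Of the 73 members, 25 had their highest median in lung, 15 in heart, 12 in gastrocnemius, 11 in liver, and 10 in white fat. Some were near ties, as with ratios of medians of 1.01 for *Hsph1* and *Dnaja3*. *Dnajb8* and *Hspb9*, counted for white fat, passed the filter in that set only, with medians of 0.0838 and 0.109 RPKM. Heart and white fat medians include the KO libraries high in hepatocyte, atrial, epididymis, or ciliated cell markers. The libraries of the highest and second tissue did not overlap for *Dnajc22* (liver over white fat, ratio of medians 10.6), *Dnajc27* (gastrocnemius over lung, 4.85), *Dnajb13* (lung over white fat, 3.46), *Hspa1l* (gastrocnemius over heart, 2.84), and *Dnajb5* (gastrocnemius over heart, 2.47), while those of *Hspb6* (gastrocnemius over heart, 2.63) and *Hspb7* (heart over gastrocnemius, 1.85) did.

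**Figure D1:**
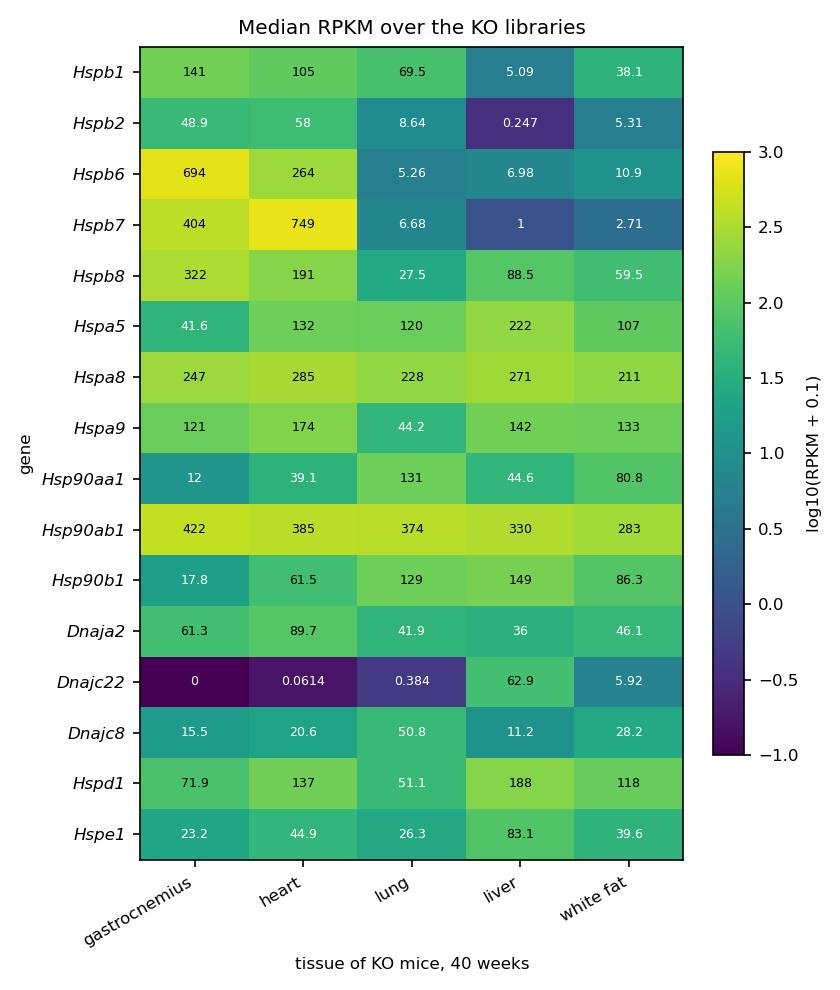
Median RPKM over the KO libraries at 40 weeks, printed in each cell and coloured on a log10 scale, for the 16 members with at least 50 RPKM in 1 tissue (rows, by family) in 5 tissues (columns). *Hspb6*, *Hspb7*, and *Hspb8* are high in gastrocnemius and heart, whereas *Hsp90ab1* and *Hspa8* are at 211 RPKM or more in all 5 tissues.

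Differences are given below as log2 fold changes of log2(normalized count + 1) with their SE, and a member is called at *P* under 0.01, the study's rule, beside the Benjamini-Hochberg adjusted *P* over all genes tested. Across 14 comparisons, 36 members were called at least once. They are shown in the map of all called members.

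**Figure D2:**
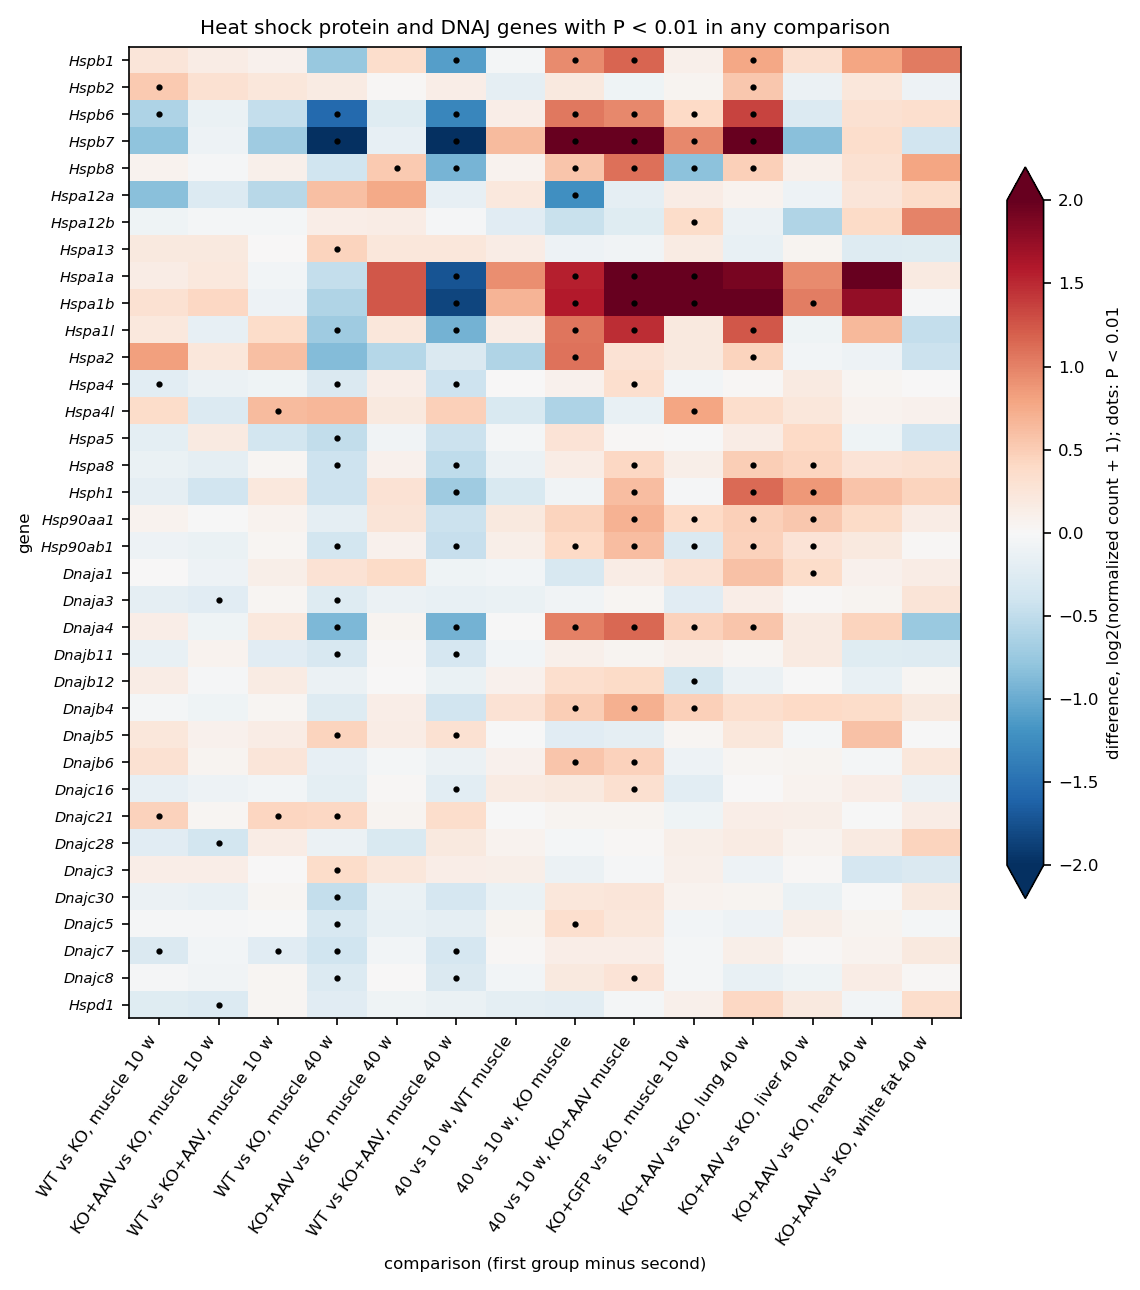
Difference of log2(normalized count + 1), first group minus second, for the 36 members called in at least 1 of 14 comparisons. Red is higher and blue lower in the first group, the colour is limited at 2 in each direction, and dots mark *P* under 0.01. Most dots of the 40-week WT comparisons are on blue cells, those of the age comparison in KO+AAV, of lung, and of liver are on red cells, and those of the age comparison in KO are too, except for *Hspa12a* (−1.23).

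In 10-week muscle few members differed. Between WT and KO, 5 of 65 were called, 2 higher and 3 lower in WT, and 4 had an adjusted *P* under 0.05. That is 7.69% of members beside 10.9% of all genes (5.7% higher and 5.15% lower), and 8.0% of all genes had an adjusted *P* under 0.05. *Hspb2*, a small heat shock protein also known as MKBP, ranged from 836 to 1006 (median 900) in the 6 WT libraries and from 550 to 731 (median 615) in the 6 KO libraries, with no overlap, a log2 fold change of 0.53 ± 0.12 (adjusted *P* = 0.0035). *Hspb6* ranged from 5930 to 10390 (median 8281) in WT and from 7264 to 17969 (median 12749) in KO, with overlap (−0.62 ± 0.20, adjusted *P* = 0.0437). *Dnajc7*, a cytosolic co-chaperone that binds both HSP70 and HSP90, was lower in WT by 0.29 on the log2 scale (−0.29 ± 0.06, adjusted *P* = 0.0024). *Dnajc21*, a DNAJ protein of ribosome assembly, was higher in WT (0.47 ± 0.12, adjusted *P* = 0.0112), and *Hspa4*, an HSP110-type exchange factor, was lower (−0.21 ± 0.07, adjusted *P* = 0.071). Within the sites, the fold changes in ICBR and Novogene libraries were 0.52 and 0.53 for *Hspb2*, −0.76 and −0.48 for *Hspb6*, −0.32 and −0.26 for *Dnajc7*, 0.44 and 0.50 for *Dnajc21*, and −0.23 and −0.19 for *Hspa4*, so the direction was the same at both sites for all 5.

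KO+AAV and KO muscle at 10 weeks differed in 3 members, all lower in KO+AAV and none with an adjusted *P* under 0.05 (4.62% of members beside 2.63% of all genes, 1.11% lower and 0.204% by adjusted *P*). *Hspd1*, the mitochondrial HSP60 that folds imported proteins, ranged from 2726 to 4128 (median 3291) in KO+AAV and from 3499 to 4465 (median 4075) in KO (−0.27 ± 0.09, adjusted *P* = 0.272). *Dnaja3*, a mitochondrial DNAJ protein, and *Dnajc28* had fold changes of −0.23 ± 0.07 (adjusted *P* = 0.278) and −0.37 ± 0.12 (adjusted *P* = 0.297). Within ICBR and Novogene libraries the values were −0.36 and −0.16 for *Hspd1*, −0.27 and −0.17 for *Dnaja3*, and −0.41 and −0.33 for *Dnajc28*, and none was called within a site. In Novogene libraries alone *Hspa1a* (0.95) and *Hspa1b* (1.14) were called higher in KO+AAV, which they were not over both sites. The fold changes of all 8 members of the mitochondrial list were negative, with a median of −0.15 beside 0.01 for all genes, and 2 of the 8 were called. WT and KO+AAV muscle differed in 3 members, 2 higher and 1 lower in WT and 2 by adjusted *P*. Of all genes 8.75% were called, 4.73% higher and 4.02% lower, and 5.15% by adjusted *P*. The 3 were *Dnajc7* (−0.23 ± 0.06, adjusted *P* = 0.0193), *Dnajc21* (0.43 ± 0.12, adjusted *P* = 0.0245), and *Hspa4l*, another HSP110-type gene (0.64 ± 0.23, adjusted *P* = 0.106). Their values in ICBR and Novogene libraries were −0.31 and −0.14, 0.43 and 0.41, and 0.88 and 0.37. An alternative added after the data were seen left out WT replicate 4, which stood high in several inducible members. In it *Hspa4l* had 0.39 and was no longer called, and the number called was 5.

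At 40 weeks the members that differed between WT and KO muscle were mostly lower in WT. Of 65 members 18 were called, 4 higher and 14 lower in WT (27.7% of members beside 22.5% of all genes, 11.5% higher and 10.9% lower), and 20 had an adjusted *P* under 0.05 (23.5% of all genes). The median fold change of the members was −0.16 beside 0.01 for all genes. Without the library labelled KO replicate 2 the count was 15 of 65 members, 3 higher and 12 lower in WT, beside 19.8% of all genes. Of the members 15 were then below the adjusted threshold. WT and KO libraries did not overlap for 11 members, where 13.6% of all genes did not overlap, and without that library for 14, where 17% did not.

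Small heat shock proteins had the largest differences among the members called. *Hspb6* (ENSMUSG00000036854, chr7:30552178-30555443) was 8205, 11355, 7945, 7545, and 10613 normalized counts in WT and 27764, 36215, 35931, 18745, and 18936 in KO. All KO libraries lay above all WT libraries (−1.55 ± 0.21, adjusted *P* = 2.58e-06). *Hspb7* (ENSMUSG00000006221, chr4:141420779-141425311) was 3732, 10637, 4520, 4330, and 7473 in WT and 19469, 66898, 51441, 17141, and 12769 in KO, again without overlap and with a wide spread in KO (−2.26 ± 0.44, adjusted *P* = 0.000274). *Hspb1* (ENSMUSG00000004951, chr5:135887919-135889563), the HSP27 gene, was not called (−0.75 ± 0.32, adjusted *P* = 0.0907), and its KO values of 2524, 11831, 3997, 2209, and 1785 rest on the library labelled KO replicate 2, without which the fold change was −0.31. Of the 6 small heat shock proteins tested 2 were called (3 without that library), and their median fold change was −0.58.

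The sum of 6 cardiomyocyte markers, none at 0, was 480 to 793 in WT, 2579 to 5207 in KO, and 695 to 6195 in KO+AAV muscle at 40 weeks. The sum of 6 slow muscle fiber markers, none at 0, was 626 to 19698 in WT, 6831 to 116786 in KO, and 1840 to 25507 in KO+AAV muscle at 40 weeks, and that of 4 atrial markers was 140 to 197, 234 to 2864, and 877 to 4902, with 1 of the 4 at 0 in WT. These sums do not show which cells expressed the markers. Their part in the differences of *Hspb6* and *Hspb7* was not tested. In bulk tissue, fewer cells of a type and less RNA per cell cannot be told apart.

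Among cytosolic HSP70 genes and co-chaperones, *Hspa1l*, *Dnaja4*, *Hspa8*, *Dnajc7*, and *Hspa4* were called lower in WT than in KO. Of the 10 members of the cytosolic stress list 2, *Dnaja4* and *Hspa8*, were called, both lower (median −0.41, and 2 with a median of −0.31 without the library labelled KO replicate 2). *Hspa1l*, a constitutive HSP70 of the *Hspa1a* cluster, was 534, 662, 552, 511, and 703 in WT and 823, 1212, 1373, 982, and 619 in KO, where the lowest KO library lay within the WT range (−0.71 ± 0.19, adjusted *P* = 0.00763). *Dnaja4*, a cytosolic DNAJ protein, was 1152, 2115, 1361, 1292, and 1896 in WT and 2107, 5960, 4149, 1926, and 1834 in KO (−0.90 ± 0.25, adjusted *P* = 0.00795), and its fold change was −0.63 without the library labelled KO replicate 2, the highest. The lowest KO libraries lay within the WT range. *Hspa8* was 11978 to 16736 in WT and 15629 to 20549 in KO, with a small overlap (−0.41 ± 0.12, adjusted *P* = 0.0127). *Dnajc7* was 1333 to 1562 in WT and 1766 to 1993 in KO, without overlap (−0.40 ± 0.07, adjusted *P* = 5.72e-05), and *Hspa4* also did not overlap (−0.29 ± 0.08, adjusted *P* = 0.00834). *Hsp90ab1* (−0.37 ± 0.12, adjusted *P* = 0.027) and the endoplasmic reticulum members *Hspa5* (−0.50 ± 0.17, adjusted *P* = 0.0272) and *Dnajb11* (−0.32 ± 0.11, adjusted *P* = 0.0339) were also called lower in WT. Without the library labelled KO replicate 2 their estimates were −0.26, −0.31, and −0.21 and none was called, and of 16 alternatives in all the call was lost in 4, 3, and 8.

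The 4 members higher in WT than KO at 40 weeks were *Dnajb5* (0.45 ± 0.11, adjusted *P* = 0.00265), *Dnajc3* (0.37 ± 0.09, adjusted *P* = 0.00319), *Dnajc21* (0.41 ± 0.13, adjusted *P* = 0.023), and *Hspa13* (0.45 ± 0.15, adjusted *P* = 0.0245). *Dnajb5*, a cytosolic DNAJ protein, was 3467 to 4405 in WT and 2434 to 3226 in KO. *Dnajc3*, the inhibitor of eIF2α kinases also known as P58IPK, was 832 to 944 in WT and 566 to 826 in KO. Groups did not overlap for these 4. *Hspa13* and *Dnajc3* belong to the endoplasmic reticulum list, in which *Hspa5* and *Dnajb11* were lower, so the 10 members of that list did not share a direction (2 higher, 2 lower, median −0.16). Without the library labelled KO replicate 2, *Dnajc3* was the 1 member of it called, and the median was 0.05. Among the 8 mitochondrial members *Dnaja3* (−0.26 ± 0.08, adjusted *P* = 0.0236) and *Dnajc30* (−0.47 ± 0.12, adjusted *P* = 0.00589) were lower and none was higher.

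WT muscle also lay below KO+AAV muscle at 40 weeks. Of 65 members 17 were called, 16 of them lower and 1 higher in WT (26.2% of members beside 14.6% of all genes, 7.45% lower and 7.14% higher), and 15 had an adjusted *P* under 0.05 (12.5% of all genes). For 12 members the libraries did not overlap, as for 11.7% of all genes. *Hspb6* was 19066, 19809, 26177, 18529, and 30451 in KO+AAV, all above WT (−1.31 ± 0.21, adjusted *P* = 6.29e-05), and *Hspb7* was 15845, 36470, 27087, 16181, and 32992 (−2.10 ± 0.44, adjusted *P* = 0.00127). *Hspb8* (ENSMUSG00000041548, chr5:116408491-116422864) was 8564, 6692, 8010, 7769, and 6157 in WT and 10576, 12392, 14620, 17055, and 16626 in KO+AAV, without overlap (−0.93 ± 0.19, adjusted *P* = 0.00104). *Hspb1* was 1665, 2754, 1803, 1856, and 2260 in WT and 2579, 7886, 3773, 4242, and 4986 in KO+AAV (−1.11 ± 0.32, adjusted *P* = 0.0205). These 4 of the 6 small heat shock proteins were called, with a median of −1.02 over the 6.

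The 10 members of the cytosolic stress list all had lower estimates in WT than in KO+AAV at 40 weeks, with a median of −0.68, and 6 were called. *Hspa1a* was 122, 480, 122, 68.8, and 181 in WT and 215, 667, 618, 493, and 821 in KO+AAV (−1.72 ± 0.50, adjusted *P* = 0.0198). Only WT replicate 2 reached the KO+AAV range. *Hspa1b* followed it with 75.6, 337, 58.4, 53.2, and 142 in WT and 126, 460, 522, 356, and 645 in KO+AAV (−1.84 ± 0.55, adjusted *P* = 0.0234). *Hsph1* (ENSMUSG00000029657), the inducible HSP110, was 1241, 1392, 979, 874, and 955 in WT and 1446, 2403, 1455, 1665, and 1955 in KO+AAV, without overlap (−0.71 ± 0.19, adjusted *P* = 0.0134). *Hspa8* at 17885 to 20466 in KO+AAV lay above all WT libraries (−0.50 ± 0.12, adjusted *P* = 0.00494), as did *Dnaja4* at 2187 to 3936 (−0.95 ± 0.25, adjusted *P* = 0.00963). *Hspa1l* (−0.94 ± 0.19, adjusted *P* = 0.00118), *Hspa4* (−0.42 ± 0.08, adjusted *P* = 0.000463), *Dnajc7* (−0.34 ± 0.07, adjusted *P* = 0.000853), and *Hsp90ab1* (−0.46 ± 0.12, adjusted *P* = 0.0127) were lower in WT too. None of the 8 mitochondrial members was called.

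**Figure D3:**
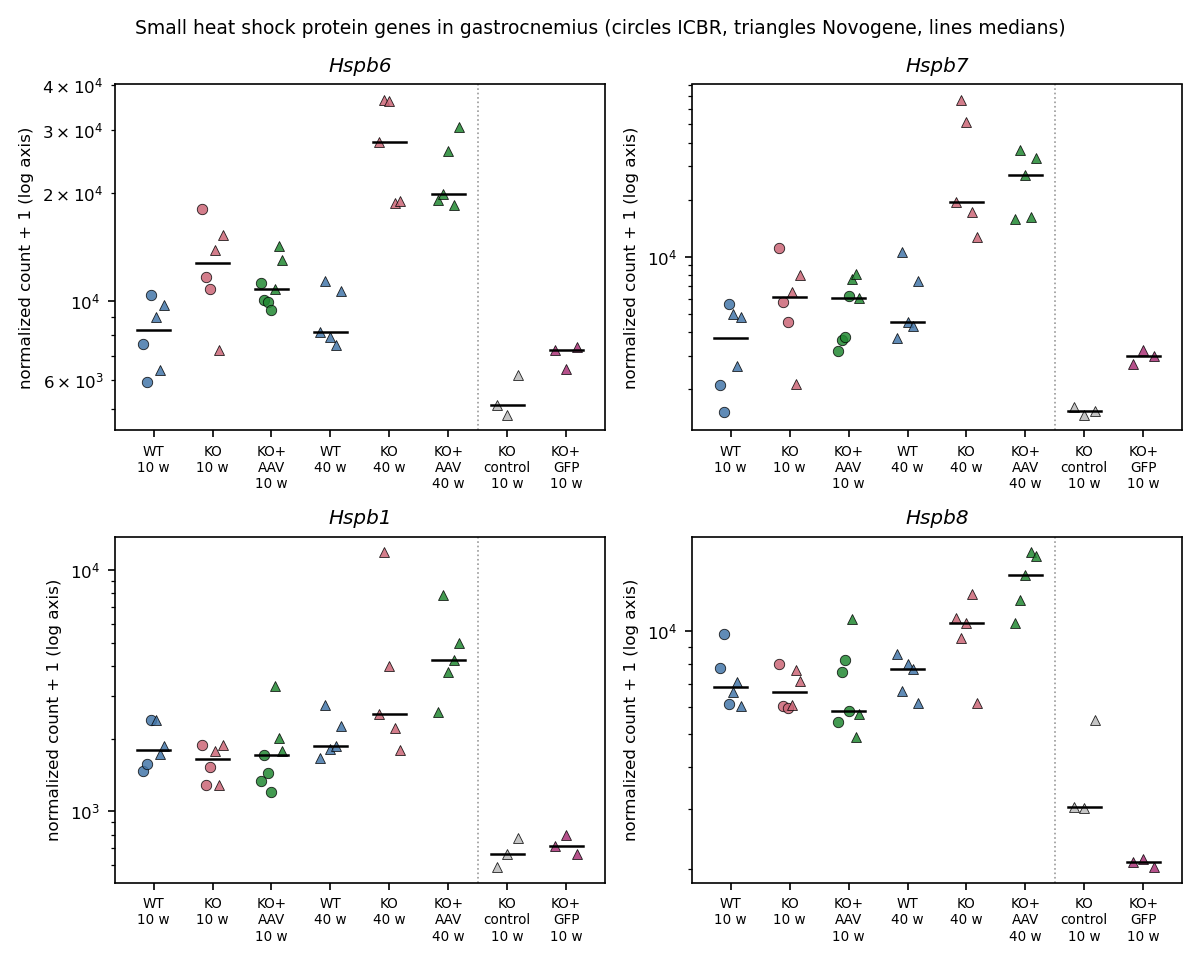
Normalized count + 1 (log axis) of *Hspb6*, *Hspb7*, *Hspb1*, and *Hspb8* in each gastrocnemius library, by group, with the GFP experiment to the right of the dotted line. Circles are ICBR and triangles Novogene libraries, and lines are group medians. At 40 weeks the KO and KO+AAV libraries of *Hspb6* (18529 to 36215) lie above the WT libraries (7545 to 11355).

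Between KO+AAV and KO muscle at 40 weeks 1 of 65 members, *Hspb8*, was called (1.54% of members beside 3.25% of all genes, 2.01% higher), with no adjusted *P* under 0.05 (0.259% of all genes), and 7 members had *P* under 0.05. *Hspb8* was 10921, 9570, 10574, 12917, and 6164 in KO, overlapping the KO+AAV libraries (0.53 ± 0.19, adjusted *P* = 0.301). All 10 members of the cytosolic stress list had positive estimates, from 0.05 to 1.25 with a median of 0.33 beside 0.02 for all genes, and none was called (1, *Hspb1*, without the library labelled KO replicate 2). *Hspa1a* was 85.3, 313, 725, 180, and 134 in KO (1.25 ± 0.50, adjusted *P* = 0.379) and *Hspa1b* 64.7, 226, 549, 107, and 106 (1.24 ± 0.55, adjusted *P* = 0.433). In both genes KO replicate 3 lay within the KO+AAV range and the other KO libraries mostly below it. *Hspb6* (−0.24 ± 0.21) and *Hspb7* (−0.16 ± 0.44) had estimates near 0. The call of *Hspb8* was lost without the library labelled KO replicate 2, and *Hspb1* (0.80) and *Dnajc3* (0.30) were called instead, beside 3.18% of all genes. The number called was 3 without KO replicate 3, 2 without KO replicate 4, 5 without KO+AAV replicate 1, and 0 without KO+AAV replicate 5.

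Between 10 and 40 weeks, members rose in KO and in KO+AAV muscle, and none was called in WT. In WT muscle 0 of 65 members passed *P* under 0.01 with limma, edgeR, or DESeq2 (2.27% of all genes with limma, 0.148% by adjusted *P*), and 2 had *P* under 0.05. In KO muscle 14 were called, 13 higher and 1 lower at 40 weeks (21.5% of members beside 12.1% of all genes, with 5.82% higher and 6.28% lower), and 8 had an adjusted *P* under 0.05 (8.31% of all genes). In KO+AAV muscle 17 were called, all higher at 40 weeks (26.2% beside 12.1%, with 6.43% higher), and 14 had an adjusted *P* under 0.05 (8.53% of all genes). KO+AAV libraries of the 2 ages did not overlap for 10 members, where 5.88% of all genes did not. The median age difference of the members was 0.02 (WT), 0.09 (KO), and 0.11 (KO+AAV), beside 0.00, −0.01, and −0.02 for all genes. Without the library labelled KO replicate 2 the KO count was 8 (7.94% of all genes), with 3 below the adjusted threshold. Without KO replicate 3 it was 8, and in Novogene libraries alone, where both ages have libraries, it was also 8. For these last 2 fits the share of all genes called is not given here, so their counts have no background beside them.

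Marker sums moved with age as well. In KO muscle the cardiomyocyte sum was 6299 to 38013 at 10 weeks and 2579 to 5207 at 40 weeks, and the atrial sum 65.6 to 143 and 234 to 2864. In KO+AAV muscle they were 13117 to 49023 and 695 to 6195, and 69.1 to 431 and 877 to 4902, and in WT muscle 1888 to 12990 and 480 to 793, and 66.0 to 126 and 140 to 197. None of these ranges overlapped between ages. In each group the cardiomyocyte sum was lower and the atrial sum higher at 40 weeks. The sums do not show which cells expressed the markers, and their part in the age differences was not tested.

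*Hspa1l* ranged from 353 to 663 (median 464) at 10 weeks in KO and from 315 to 493 (median 436) in KO+AAV. It was higher at 40 weeks in KO (1.08 ± 0.20, adjusted *P* = 0.00153) and in KO+AAV, where it was 861, 1385, 1055, 938, and 1569 (1.47 ± 0.20, adjusted *P* = 1.79e-05). *Hspb7* ranged from 2131 to 11180 (median 6170) at 10 weeks in KO and from 3204 to 8142 (median 6073) in KO+AAV, below every 40-week library of its group (2.09 ± 0.45, adjusted *P* = 0.00475, and 2.02 ± 0.44, adjusted *P* = 0.00386). *Hspb6* ranged from 9445 to 14224 (median 10765) in 10-week KO+AAV muscle, and its fold changes were 1.06 ± 0.22 (adjusted *P* = 0.00377) in KO and 0.96 ± 0.22 (adjusted *P* = 0.00508) in KO+AAV. *Dnaja4* rose by 1.01 ± 0.25 (adjusted *P* = 0.0144) and 1.15 ± 0.25 (adjusted *P* = 0.00377) on the log2 scale. *Hsp90ab1* rose by 0.40 ± 0.13 (adjusted *P* = 0.047) and 0.61 ± 0.13 (adjusted *P* = 0.00227).

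The inducible pair *Hspa1a* and *Hspa1b* had their largest age difference in KO+AAV muscle. *Hspa1a* ranged from 57.5 to 152 (median 101) at 10 weeks, below all 5 libraries at 40 weeks (2.59 ± 0.51, adjusted *P* = 0.00133). *Hspa1b* ranged from 49.9 to 116 (median 79.6) at 10 weeks, also without overlap (2.42 ± 0.56, adjusted *P* = 0.00583). In KO muscle the values were 1.56 ± 0.51 (adjusted *P* = 0.0528) and 1.59 ± 0.56 (adjusted *P* = 0.0725), and both calls were lost without the library labelled KO replicate 2. *Hspb8* (1.10 ± 0.19, adjusted *P* = 0.00041), *Dnajb4* (0.71 ± 0.18, adjusted *P* = 0.00985), *Hspb1* (1.16 ± 0.33, adjusted *P* = 0.0238), *Hspa4* (0.34 ± 0.08, adjusted *P* = 0.00831), *Hspa8* (0.42 ± 0.12, adjusted *P* = 0.0288), *Hsph1* (0.62 ± 0.20, adjusted *P* = 0.0449), and *Dnajc16* (0.33 ± 0.08, adjusted *P* = 0.00707) rose in KO+AAV muscle. Of these, *Hspb8* (0.55), *Dnajb4* (0.49), and *Hspb1* (0.95) were also called in KO muscle, where *Hspa4* had 0.08, *Hspa8* 0.15, *Hsph1* −0.07, and *Dnajc16* 0.20. In KO muscle *Dnajc5*, the cysteine string protein of vesicles (0.34 ± 0.09, adjusted *P* = 0.0158), *Dnajb6*, a DNAJ protein of the sarcomeric Z-disc (0.56 ± 0.16, adjusted *P* = 0.0281), and *Hspa2*, an HSP70 best known from male germ cells (1.09 ± 0.35, adjusted *P* = 0.0472), rose, and *Hspa12a*, a distant HSP70 relative, was the 1 member called lower (−1.23 ± 0.43, adjusted *P* = 0.067). In KO+AAV muscle *Dnajb6* was called too (0.47), and *Dnajc5*, *Hspa2*, and *Hspa12a* had 0.22, 0.28, and −0.19. *Hspa2* was 85.3, 91.3, 297, 94.6, and 91.0 in 40-week KO muscle and was no longer called without KO replicate 3. By role, 5 of 10 members of the cytosolic stress list were called in KO and 8 of 10 in KO+AAV, 4 of 6 small heat shock proteins in each, and 0 of 10 endoplasmic reticulum and 0 of 8 mitochondrial members in either. Without the library labelled KO replicate 2, the KO counts were 1 of 10 and 2 of 6.

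**Figure D4:**
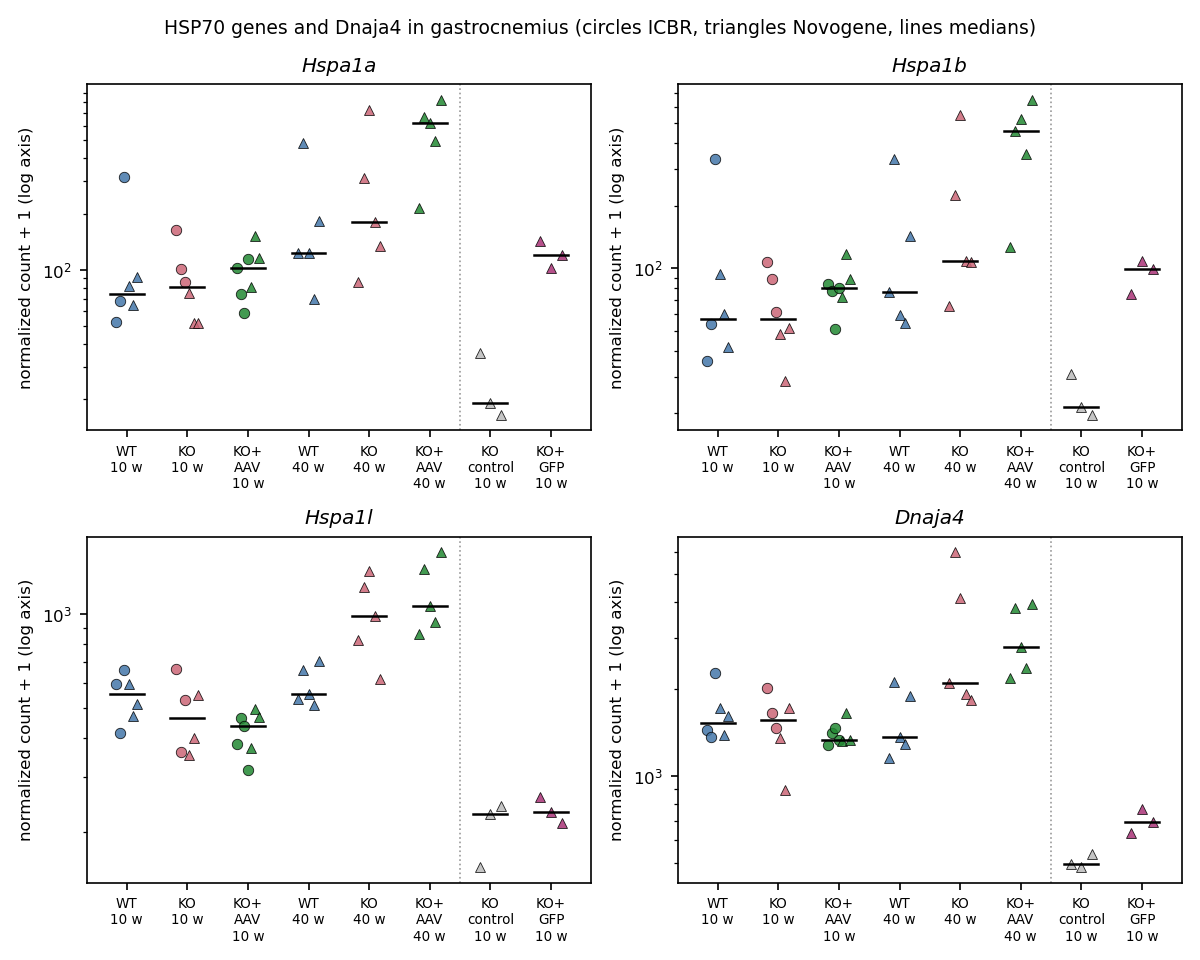
Normalized count + 1 (log axis) of *Hspa1a*, *Hspa1b*, *Hspa1l*, and *Dnaja4* in each gastrocnemius library, by group, with the GFP experiment to the right of the dotted line. Circles are ICBR and triangles Novogene libraries, and lines are group medians. The KO+AAV libraries of *Hspa1a* lie between 57.5 and 152 at 10 weeks and between 215 and 821 at 40 weeks.

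The age effects themselves were compared through the interaction of age and group. The WT minus KO difference changed between 10 and 40 weeks in 4 of 65 members at *P* under 0.01 (6.15% beside 4.47% of all genes, 2.2% more negative), all more negative at 40 weeks, and in 14 at *P* under 0.05. They were *Hspa2* (−1.70 ± 0.46, adjusted *P* = 0.0972), *Hspa1l* (−0.92 ± 0.26, adjusted *P* = 0.112), *Hspb6* (−0.93 ± 0.29, adjusted *P* = 0.142), and *Dnaja4* (−1.03 ± 0.34, adjusted *P* = 0.163). None had an adjusted *P* under 0.05 with limma (0.37% of all genes). The count was 3 without the library labelled KO replicate 2 (3.47% of all genes) and 8 without KO replicate 5. The KO+AAV minus KO difference changed with age in 0 members with limma, edgeR, or DESeq2 (1.08% of all genes with limma), with 5 at *P* under 0.05, and the lowest adjusted *P* was 0.895, for *Hsph1* (0.68), which was called (0.78) without the library labelled KO replicate 2. The larger rise of *Hspa1a* in KO+AAV than in KO muscle was therefore not shown to differ from the rise in KO.

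In the GFP experiment, which had no *Bmal1* vector, the inducible HSP70 genes differed between vector and control. Of 65 members 12 were called, 9 higher and 3 lower in KO+GFP (18.5% of members beside 8.24% of all genes, 4.37% higher and 3.88% lower), and 6 had an adjusted *P* under 0.05 (3.09% of all genes). *Hspa1a* was 142, 101, and 120 normalized counts in KO+GFP and 34.7, 18.2, and 15.5 in KO control (2.42 ± 0.27, adjusted *P* = 0.000879). *Hspa1b* was 74.3, 107, and 97.8 against 29.8, 20.5, and 18.7 (1.99 ± 0.23, adjusted *P* = 0.00107). *Hspb7* was 2725, 3231, and 3016 against 1622, 1470, and 1529 (0.95 ± 0.09, adjusted *P* = 0.000299). The 3 KO+GFP libraries lay above the 3 control libraries in each of these genes, and 19 members did not overlap, where 23.5% of all genes did not.

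*Dnajb4* was 575, 535, and 568 in KO+GFP against 423, 384, and 399 (0.48 ± 0.09, adjusted *P* = 0.0142), and *Dnaja4* 635, 767, and 692 against 493, 482, and 536 (0.47 ± 0.10, adjusted *P* = 0.0235). *Hspb8* went the other way, with 2095, 2150, and 2031 against 3043, 3023, and 5500 (−0.82 ± 0.18, adjusted *P* = 0.0314), where control replicate 3 stood high. *Hspb6* (0.40 ± 0.11, adjusted *P* = 0.0647) and *Hsp90aa1* (0.39 ± 0.12, adjusted *P* = 0.11) were called higher, and *Hsp90ab1* (−0.29 ± 0.08, adjusted *P* = 0.0825) lower. Of the cytosolic stress list 5 of 10 were called, all higher, and none of the 8 mitochondrial members was. The slow muscle fiber sum was 8807 to 12260 in KO+GFP and 672 to 5487 in control libraries, the sum of 7 macrophage markers 473 to 764 and 175 to 289, and that of 4 plasma cell markers 347 to 540 and 1226 to 1495, with no marker of these lists at 0 in either group. Their part in the differences was not tested. The count was 6 without KO+GFP replicate 3 and 7 without control replicate 2.

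In lung, 12 of 70 members were called between KO+AAV and KO, all higher in KO+AAV (17.1% of members beside 3.96% of all genes, and 3.06% of all genes higher). With limma none had an adjusted *P* under 0.05, the lowest being 0.0976 (0.0237% of all genes had), and 26 had *P* under 0.05. At *P* under 0.01 edgeR called 16 and DESeq2 20, and with DESeq2 some also had an adjusted *P* under 0.05. The shares of all genes called with edgeR and DESeq2 are not given here. The median fold change of the members was 0.10 beside −8.23e-06 for all genes, and 14 members did not overlap between groups, as 6.77% of all genes did not. *Hspa1l* was 47.3, 66.5, 59.4, and 58.1 in KO and 104, 118, 163, and 178 in KO+AAV (1.24 ± 0.21, adjusted *P* = 0.0976). *Hspb8* was 2699, 2351, 2292, and 2272 against 3119, 3174, 3219, and 3928 (0.48 ± 0.09, adjusted *P* = 0.11). *Hsph1* was 2790, 3837, 3789, and 3609 against 4196, 9136, 6455, and 13617 (1.13 ± 0.31, adjusted *P* = 0.204). *Hspa8* at 40637 to 45887 against 50649 to 74603 (0.49 ± 0.12, adjusted *P* = 0.149) and *Hsp90aa1*, the inducible HSP90, at 20500 to 23100 against 24254 to 40228 (0.48 ± 0.14, adjusted *P* = 0.217) also did not overlap. *Hspb1* was 3446, 2976, 3450, and 2685 against 3524, 6975, 4838, and 6847 (0.77 ± 0.21, adjusted *P* = 0.195). *Hspa1a*, at 316, 1079, 738, and 411 against 687, 4052, 1172, and 6113, was not called (1.90 ± 0.68, adjusted *P* = 0.32).

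The small heat shock proteins of striated muscle were among the members called in lung. *Hspb7* was 184, 827, 777, and 1663 in KO and 3798, 2224, 3742, and 4875 in KO+AAV (2.40 ± 0.57, adjusted *P* = 0.15). *Hspb6* was 427, 503, 544, and 817 against 1368, 899, 1523, and 2221 (1.36 ± 0.27, adjusted *P* = 0.114). *Hspb2* (0.55 ± 0.13, adjusted *P* = 0.144), *Dnaja4* (0.55 ± 0.13, adjusted *P* = 0.163), and *Hspa2* (0.45 ± 0.12, adjusted *P* = 0.21) were called as well. The sum of 6 cardiomyocyte markers, none at 0, was 4968 to 45601 in KO and 69357 to 233924 in KO+AAV lung, without overlap, and that of 4 atrial markers, none at 0, was 556 to 12662 and 17546 to 66198. In the other direction, the alveolar type 2 sum (4 markers, none at 0) was 761062 to 1101048 in KO and 606236 to 744928 in KO+AAV, and the macrophage sum (7 markers, none at 0) 144300 to 199699 and 111199 to 140896, also without overlap, and their part was not tested. With the log2 sum of the cardiomyocyte and atrial markers as a term in the fit, an alternative added after the data were seen, 2 members were called, *Hspb8* (0.58) and *Dnajc28* (0.53). *Hspb7* then had 0.10, *Hspb6* 0.51, *Hspb2* 0.23, *Hspa2* 0.09, and *Dnaja4* 0.21. The estimates of *Hspb1* (1.04), *Hspa1l* (0.80), and *Hsph1* (0.79) were positive and not called. Since the cardiomyocyte and atrial sums did not overlap between KO and KO+AAV lung, this fit cannot tell the marker term and the group apart. The share of all genes called in this fit is not given here. With the main model, the number called was 19 without KO+AAV replicate 1.

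In liver, 6 of 65 members were called, all higher in KO+AAV and all cytosolic chaperones (9.23% of members beside 0.546% of all genes, and 0.318% of all genes higher). None had an adjusted *P* under 0.05, each having 0.997, and 9 had *P* under 0.05. *Hsph1* was 2381, 1884, 2202, and 2411 in KO and 2943, 5276, 4037, and 4148 in KO+AAV, without overlap (0.86 ± 0.16). *Hsp90aa1* was 7544, 6070, 7312, and 8750 against 9127, 11658, 12549, and 9771 (0.54 ± 0.13), and *Dnaja1*, a main cytosolic partner of HSP70, was 11085, 9323, 10492, and 10564 against 11895, 15747, 13050, and 12999 (0.37 ± 0.10). *Hspa8* was 54056, 40260, 49540, and 47045 against 56774, 60859, 70417, and 67880 (0.43 ± 0.12), and *Hsp90ab1* was 39334 to 42571 against 48000 to 52311 (0.28 ± 0.08). *Hspa1b* was 670, 438, 1027, and 599 against 943, 1142, 1350, and 2105, with the lowest KO+AAV library inside the KO range (1.02 ± 0.29). The libraries of 5 of these 6 genes did not overlap, and with *Hspd1* 6 members in all did not, where 2.13% of all genes did not.

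All 10 members of the cytosolic stress list had positive estimates in liver, with a median of 0.42, and 5 were called, beside 0 of 10 endoplasmic reticulum members (median 0.11), 0 of 8 mitochondrial members (median 0.06), and 0 of the 5 small heat shock proteins tested (median −0.12). *Hspa1a* was 82.9, 71.7, 133, and 61.2 in KO and 126, 120, 113, and 406 in KO+AAV, where replicate 4 stood apart (0.95 ± 0.42, adjusted *P* = 0.997, not called). Hepatocyte marker sums were 2194691 to 2684774 in KO and 2062579 to 2428377 in KO+AAV liver, overlapping between groups. Calls of *Hsph1* and *Hsp90aa1* held under every alternative tried, whereas the number called was 2 without KO replicate 2 or KO replicate 4 and 3 without KO replicate 3, KO+AAV replicate 3, or KO+AAV replicate 4.

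**Figure D5:**
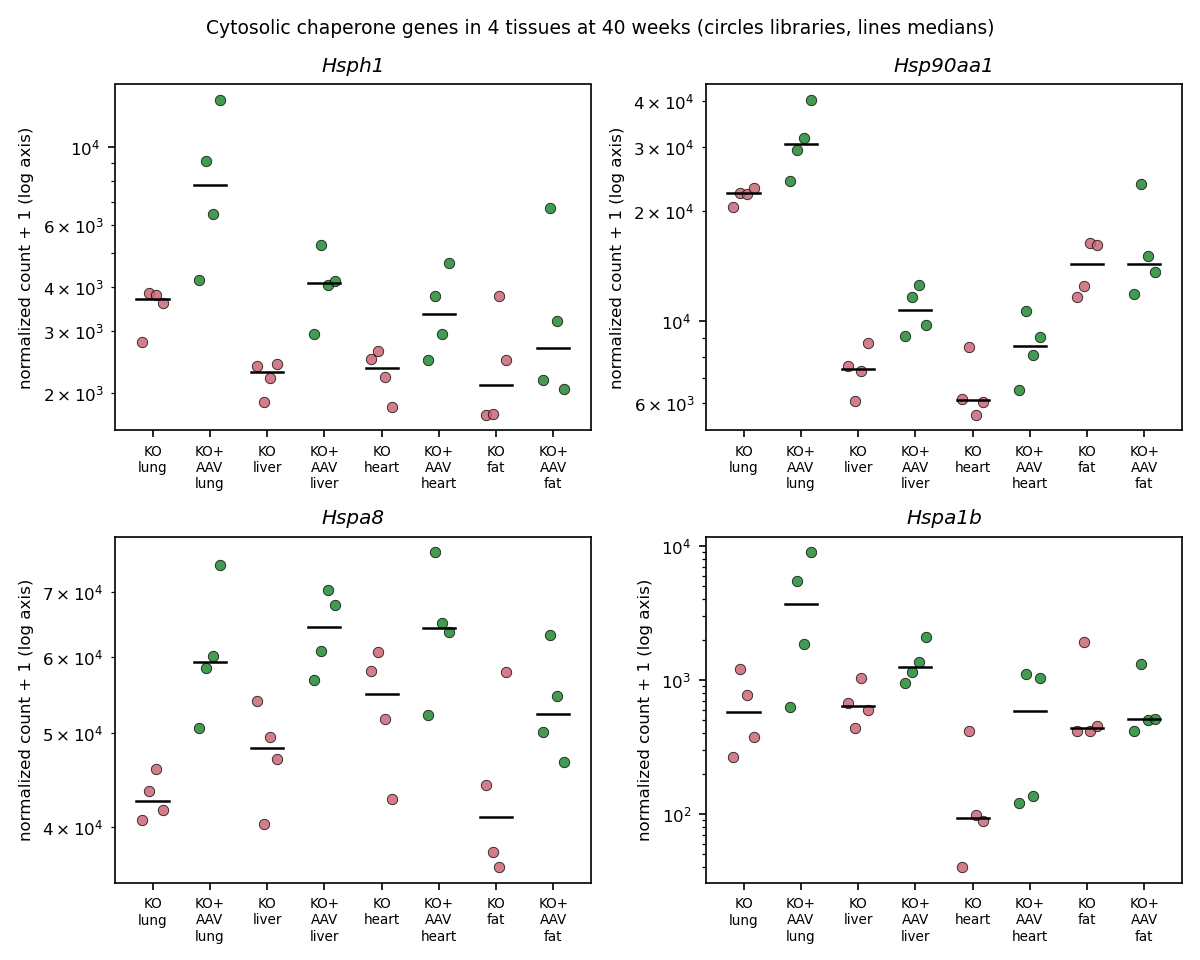
Normalized count + 1 (log axis) of *Hsph1*, *Hsp90aa1*, *Hspa8*, and *Hspa1b* in each KO and KO+AAV library of lung, liver, heart, and white fat at 40 weeks. Circles are libraries and lines group medians. In liver the KO+AAV libraries of *Hsph1* (2943 to 5276) lie above the KO libraries (1884 to 2411), while in white fat the groups overlap for all 4 genes.

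In heart no member passed *P* under 0.01 with limma (0.0829% of all genes did), 4 had *P* under 0.05, and edgeR and DESeq2 each called 1. *Hspa1a* was 103, 102, 130, and 161 in KO and 190, 1618, 263, and 1168 in KO+AAV, without overlap but with a wide spread (2.18 ± 0.68, adjusted *P* = 0.862). *Hsph1* was 1823 to 2621 in KO and 2467, 3760, 2945, and 4683 in KO+AAV (0.57 ± 0.21, adjusted *P* = 0.862). The 10 members of the cytosolic stress list had positive estimates with a median of 0.51 beside −0.01 for all genes. An alternative added after the data were seen left out the 3 libraries high in hepatocyte or atrial genes. These were KO replicates 2 and 4 and KO+AAV replicate 1, of 4 libraries per group. In it 5 members were called, all higher in KO+AAV, namely *Hsp90aa1* (0.66), *Hspa1a* (2.77), *Hsph1* (0.67), *Dnaja1* (0.74), and *Dnajc27* (0.32). The share of all genes called in that fit is not given here, so these calls have no background beside them. With only 1 library left out, the number called was 2 without KO+AAV replicate 1 and 1 without KO+AAV replicate 3.

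In white fat no member was called (0.0711% of all genes were), by limma, edgeR, or DESeq2. Only *Hspb1* had *P* under 0.05, with 1884, 645, 1612, and 2087 in KO and 2562, 3105, 3765, and 2440 in KO+AAV, without overlap (1.04 ± 0.37, adjusted *P* = 0.907). *Hspa1a* was 178, 966, 209, and 176 in KO and 241, 618, 283, and 242 in KO+AAV, and replicate 2 was the highest in both groups. Replicate 2 of both groups was also high in epididymis or ciliated cell markers, whose part was not tested. *Hsph1* was 1728, 1738, 3771, and 2470 against 2166, 6733, 3189, and 2048, with overlap. Without KO replicate 2 the number called was 1. In lung and heart KO+AAV replicates 2 and 4 had the 2 highest *Hspa1a* values of their group, in liver replicate 4 had the highest, and in white fat replicate 2 did.

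Whether the KO+AAV effect differed among lung, liver, heart, and white fat was tested in 1 model of the 32 libraries over 15243 genes. No member was called with limma, edgeR, or DESeq2 (0.505% of all genes were with limma), 4 had *P* under 0.05, *Hspb6*, *Dnajc8*, *Dnajb5*, and *Hspb7*, and the lowest adjusted *P* was 0.964. The presence of calls in lung and liver and their absence in heart and white fat was therefore not shown to be a difference between tissues.

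Other chaperone genes outside the symbols taken, such as the BAG, CCT, and HSP90 co-chaperone genes and *Cryab*, were counted from a list of 37, of which 36 were tested in each set. In 40-week muscle 1 was called higher and 10 lower in WT than KO (30.6% of the list beside 22.5% of all genes, median −0.19), and 1 and 8 without the library labelled KO replicate 2. Between WT and KO+AAV 1 was higher and 8 lower (25% beside 14.6%, median −0.09), and between KO+AAV and KO 0 were called (median −0.02). With age 6 were higher and 2 lower in KO (22.2% beside 12.1%, median 0.08; 5 and 1 without that library), 7 higher and 2 lower in KO+AAV (25% beside 12.1%, median 0.12), and 0 higher and 1 lower in WT (2.78% beside 2.27%, median −0.03). In lung 7 were higher and 0 lower in KO+AAV (19.4% beside 3.96%, median 0.12), in liver 2 and 0 (5.56% beside 0.546%, median 0.05), in the GFP experiment 2 and 1 (8.33% beside 8.24%, median −0.03), and in heart and white fat 0. Genes of endoplasmic reticulum folding (19 listed) had 0 calls in lung, liver, heart, white fat, and the GFP experiment, and 2 lower in WT than KO at 40 weeks (10.5% beside 22.5%, median −0.15). Of 11 immediate early genes, which respond to handling and stress within minutes, 1 was higher and 2 lower in WT than KO muscle at 40 weeks (27.3% beside 22.5%, median −0.55), or 1 and 1 without the library labelled KO replicate 2, 3 were lower in WT than KO+AAV (27.3% beside 14.6%, median −0.76), and 2 were higher in KO+AAV than KO (18.2% beside 3.25%, median 0.71). In heart 1 was higher in KO+AAV (9.09% beside 0.0829%, median 0.68), with 0 in lung, liver, and white fat, where the medians were 0.04, −0.29, and 0.33.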

How the data were processed

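RNA-Seq was made from poly(A) RNA. The deposited tables hold normalized counts, which the authors made by aligning reads with HISAT2 to GRCm38, counting with HTSeq, and dividing by DESeq2 size factors. The annotation release and strand setting are not given in the sources used here. The deposited unit is thus a signal, counts over a size factor. Whole reads were recovered (100% of values whole within 0.01) for edgeR and DESeq2 as an added alternative.

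Genes with a mean above 5 were tested on log2(normalized count + 1), a log2 scale computed here from the deposited values, with limma (trend), with sequencing site as a term in gastrocnemius and 1 model for its 34 libraries. A pseudocount of 1 understates changes of low genes. *P* under 0.01 was called, with Benjamini-Hochberg adjustment over all genes tested. Named were members with adjusted *P* under 0.05 (at most 12), or *P* under 0.01 (at most 6) where fewer than 4 passed, and the role lists. Members named outside this rule (such as *Hspa4* at 10 weeks, *Hsp90ab1*, *Hspa2*, and *Hspa12a*) were chosen after their values were seen. Members and lists were chosen with earlier results of these data known. The test was checked on simulated counts in which all genes had the same relative spread beyond counting error. Of unchanged genes, 0.806% (KO+AAV against KO, 10-week muscle) to 1.53% (WT against KO, 40-week muscle) were called. Of genes changed 1.5-fold, 46.3% were called in the GFP experiment, 61.2% in liver, and 65.7% in lung. It was 71.6% for WT against KO at 40 weeks and 83.6% for KO+AAV against KO at 10 weeks. RPKM used exon lengths of GENCODE M21. The alternatives were the pseudocount, no filter, edgeR, DESeq2, no site term, a replicate block, single sites, and leaving out each library. Of the 10-week groups of more than 5, only WT replicate 4 was left out, a choice made after the data were seen. Versions were R 4.3.3, limma 3.58.1, edgeR 4.0.16, and DESeq2 1.42.0.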

Additional observations from a re-analysis of the deposited data

Results flagged for a closer look

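For the members described by library, 159 groups of 4 to 10 libraries were examined for a library far from the others, by the gap to its nearest neighbour relative to the whole range (Dixon's criterion), and 22 values stood apart. Chance alone flags about 1 in 20 groups.

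In muscle at 10 weeks, WT replicate 4 stood high in 4 inducible members. It had 316 normalized counts of *Hspa1a* (others 51.2 to 90.8), 335 of *Hspa1b* (34.6 to 92.5), 20499 of *Hspa8* (12948 to 15235), and 2609 of *Hsph1* (1223 to 1511). KO+AAV replicate 5 had 3295 of *Hspb1* (1196 to 2010), and KO replicate 6 was low in *Hspa5* with 2333 (2839 to 3024).

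At 40 weeks the library labelled KO replicate 2, which also had the high *Arntl* count, had 11831 of *Hspb1* (1785 to 3997), 5545 of *Hspa5* (2677 to 2958), and 30912 of *Hsp90ab1* (18844 to 22028). KO replicate 3 had 297 of *Hspa2* (85.3 to 94.6). WT replicate 2 had 480 of *Hspa1a* (68.8 to 181), and KO+AAV replicate 2 had 32104 of *Hsp90ab1* (21118 to 23124).

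In lung KO+AAV replicate 4 had 3928 of *Hspb8* (3119 to 3219), and in liver KO+AAV replicate 4 had 406 of *Hspa1a* (113 to 126). In white fat replicate 2 stood high in both groups. KO replicate 2 had 966 of *Hspa1a* (176 to 209) and 1908 of *Hspa1b* (415 to 454), and KO+AAV replicate 2 had 618 of *Hspa1a* (241 to 283) and 1307 of *Hspa1b* (418 to 514). The white fat KO replicate 2, high in epididymis markers, also had 295 of *Dnajb8* (0 to 9.53) and 359 of *Hspb9* (0 to 6.35), both known from testis. The heart KO replicate 2, high in hepatocyte markers, had 4145 of *Dnajc22* (2.88 to 4.92), the member highest in liver, and 415 of *Hspa1b* (39.3 to 97.0). The part of the marker genes in these values was not tested.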

How the results depend on the processing

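No called result changed direction under the alternatives run, while the lung estimate of *Hspb3*, not called, went from 2.23 to −0.86 with the cardiomyocyte and atrial marker term. *Hspb6*, *Hspb7*, *Dnajc7*, and *Hspa1l* (WT against KO at 40 weeks) and *Hsph1* and *Hsp90aa1* (liver) stayed called under each of them. Leaving out 1 library at a time (for the age comparisons 1 of the 40-week libraries, or WT replicate 4 at 10 weeks), the number of members called ranged from 15 to 22 for WT against KO and from 15 to 18 for WT against KO+AAV at 40 weeks, from 0 to 5 for KO+AAV against KO at 40 weeks, from 8 to 16 with age in KO, from 13 to 18 in KO+AAV, and 0 in WT. It was 3 to 8 and 0 to 1 for the age interactions of WT and of KO+AAV against KO, 6 to 12 in the GFP experiment, 9 to 19 in lung, 2 to 6 in liver, 0 to 2 in heart, and 0 to 1 in white fat. Without WT replicate 4, left out after the data were seen, it was 5 for WT against KO+AAV and 7 for WT against KO at 10 weeks.

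With edgeR or without the filter, 0 members were called for KO+AAV against KO at 40 weeks. DESeq2 called 7 members (2 with adjusted *P* under 0.05) in the WT age interaction, 20 (14) in lung, and 1 in heart, where edgeR and the fit without the filter also called 1. Without the site term, 3 were called for WT against KO and 1 for WT against KO+AAV at 10 weeks, and 1 with age in WT. ICBR libraries alone gave 0 for KO+AAV against KO and 1 for WT against KO+AAV at 10 weeks, and Novogene libraries alone gave 3 for WT against KO and 1 for WT against KO+AAV. The following alternatives were also chosen after seeing the data and gave 8 with age in KO (Novogene alone), 2 in lung (the marker term), and 5 in heart (without 3 libraries). A further one left out the 3 white fat libraries high in epididymis or ciliated cell genes, and its count is not given here. The cause of these shifts was not tested. Shares of all genes called are given only for the main fits and for those without the library labelled KO replicate 2, so other counts have no background.

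Same-numbered libraries correlated between −0.126 and 0.249 (10 weeks) and −0.113 and 0.366 (40 weeks) in muscle, and between −0.383 and 0.577 over the other tissues. The higher values were in white fat (0.403, 0.48, and 0.577, with −0.383 for replicate 3) and between KO and KO+AAV muscle replicates 2 (0.366) and 3 (0.343) at 40 weeks. The labels state no pairing, and the numbers were taken not to pair the samples, which these values do not settle. With a replicate block, 2 members were called for KO+AAV against KO at 40 weeks, 8 in the WT age interaction, 1, 3, and 5 with age in WT, KO, and KO+AAV, 3 in liver, and 1 in the tissue difference. In the main fit the age counts were 0, 14, and 17. With 9325122 to 13610317 reads per library in 40-week muscle, low members such as *Hspa2* are limited by counting error.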
